A study of Mus musculus with 6 samples.

Results

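Collagens are assembled from chains encoded by separate genes, and the levels of these chain genes were measured in the injured spinal cord of the mouse. A gene was included when its symbol has the form of a collagen chain (Col, a type number, the letter a and a chain number) and the isoform table holds it with isoforms of the reference classes, which are annotated isoforms and assembled isoforms that share their exons. This gave 44 collagen chain genes of 29057 genes, with 189 isoforms of 93552. The circular RNA table held 13 circRNAs of 9 of these genes, of 17440 circRNAs in all. By the structure of their proteins the genes were 11 fibrillar chains, 6 type IV chains, 6 type VI chains, 9 fibril-associated chains, 3 chains of the basement membrane zone, 3 short-chain collagens, 4 transmembrane collagens and 2 others.

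The TSCI libraries (traumatic spinal cord injury) came from male C57BL/6 mice aged 8 weeks whose cord was exposed by laminectomy at the thoracic level T8 to T10 and injured moderately with a dropped weight. The sham libraries came from mice of the same strain, sex and age that had the laminectomy and no injury to the cord, so both groups carry the wound of the surgery in muscle and bone. There were 3 libraries in each group. The labels give 48 mice in sets of 8 and do not state whether a library is a pool of such a set, nor the time after injury, so p-values measure the spread between these libraries.

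A collagen molecule is a triple helix of chains in which glycine recurs at a fixed spacing, which lets the chains pack around each other. Fibrillar collagens (types I, III, V and others) form the cable-like fibrils of connective tissue, type IV forms the mesh of basement membranes, and type VI forms beaded filaments around cells. In the healthy cord collagen is largely kept to the meninges and the blood vessels, and after injury it is a known component of the fibrotic part of the scar, laid down by fibroblasts and cells of the vessel wall. Chains are hydroxylated and folded in the endoplasmic reticulum with the help of dedicated enzymes and chaperones, then trimmed and cross-linked outside the cell.

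The repeat is visible in the genes. Exon 9 of Col1a1, the gene of the alpha 1 chain of type I collagen, is printed here because it borders a circular RNA described further on and has the exon length typical of fibrillar collagens. It lies at chr11:94940118-94940171 on the plus strand of GRCm38 (GENCODE M21) and encodes 18 codons, of which the 6 glycine codons are in capitals.
Col1a1 exon 9: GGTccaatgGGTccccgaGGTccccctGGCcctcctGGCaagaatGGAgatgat
Of the 567 internal coding exons of the fibrillar chain isoforms with the most signal, 48.0% were 54 bases long and 83.4% were a multiple of 9 bases, the length of 1 glycine repeat. For type IV chains the multiples of 9 made up 47.1% of 189 such exons. For the principal coding transcripts of the mouse without the collagen isoforms used here, they made up 13.5% of 127491. Other collagen transcripts were not removed from that set.

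Levels are given in FPKM, fragments per kilobase of transcript scaled to all mapped fragments, summed over the isoforms of a gene. The summed FPKM of the 44 genes was 624, 341 and 362 in the TSCI libraries, against 160.5, 120.4 and 150.3 in the sham libraries, so every TSCI sum lay above every sham sum. As a share of the FPKM of all genes, the sums were 0.218%, 0.056% and 0.0838% in TSCI cords, against 0.067%, 0.0189% and 0.0212% in sham cords. These shares overlapped, as TSCI replicate 2 lay below sham replicate 1. Without Col1a1, Col1a2 and Col3a1, the sums were 295, 133 and 161 FPKM in TSCI cords and 105, 60.9 and 63.7 FPKM in sham cords. In tissue RNA, more cells of a type and more RNA per cell cannot be told apart. Of the 44 genes, 33 had a mean of at least 0.5 FPKM over the 6 libraries and were tested, and 3 of these, Col2a1, Col4a4 and Col7a1, had a sham mean below 0.5 FPKM.

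None of the 33 tested genes passed the threshold (limma, adjusted p under 0.05), while 0.878% of all 16740 genes passed as higher in TSCI and 0.0119% as lower. At an unadjusted p under 0.05, 14 of the 33 were higher and 0 were lower, beside 10.0% and 1.76% of all genes. A p that misses the threshold does not show that a chain did not differ, and the values are given as measured. In 18 of the 33 tested genes the lowest TSCI value exceeded the highest sham value, beside 13.4% of all genes, and in 2 the order was the opposite, beside 3.13%. Col2a1 and Col7a1, which reached the test through their TSCI values, are among the 14 and the 18. Outside lane 8 (described with the libraries), for which these counts were added after seeing the data, 22 of the 33 lay wholly above and 4 wholly below, beside 45.4% and 10.8% of all tested genes. The log2 fold change, TSCI over sham, was positive for 26 of the 33 and for 69.7% of all genes. Its median was 1.34 over the 33 genes and 0.44 over all genes, so the chains stood 0.90 above the general shift of these FPKM values. That excess was 0.49 outside lane 8 and 0.56 without sham replicate 1. Scaling the libraries by the median of gene ratios moved the median of all genes to 0.07 and that of the chains to 0.87, and counts of groups that do not overlap to 13 above and 4 below, beside 12% and 7.06% of all genes.

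**Figure D1:**
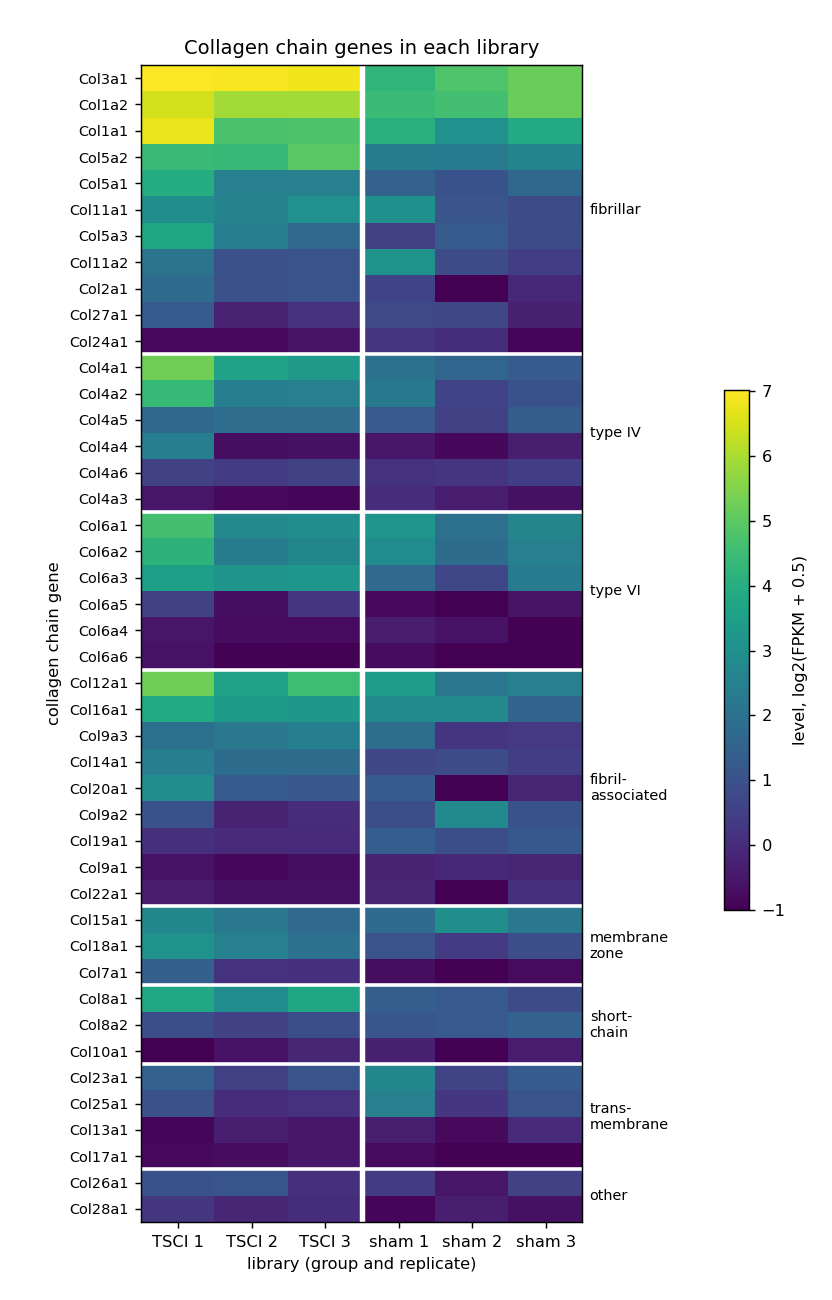
Level of each of the 44 collagen chain genes (rows, grouped by family and ordered by mean) in each of the 3 TSCI and 3 sham libraries (columns), as log2(FPKM + 0.5). The brightest cells are Col3a1, Col1a2 and Col1a1, and most rows of the fibrillar family are brighter on the TSCI side.

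The aligned bases behind these values came to 4.46, 7.93 and 9.16 Gb in TSCI libraries and 5.93, 4.8 and 8.2 Gb in sham libraries, as FPKM over coverage implies. Replicate 1 of each group was sequenced on lane 8, as the labels name it, and in these libraries 9.8% (TSCI) and 10.2% (sham) of bases on isoforms fell on intronic ones, against 2.0% to 3.8% in the other TSCI libraries and 2.4% to 3.8% in the other sham libraries. TSCI replicate 1 also held the highest of the 6 values for 24 of the 44 chains, beside 25.5% of all tested genes, so within-lane values are given for the chains with the highest levels or fold changes. Lane 8 held 1 library of each group, and lane 1 held 2 TSCI libraries and 1 sham library. Sham replicate 2 was alone on lane 3, so comparisons outside lane 8 have this lane on the sham side only. The median log2 difference of the 33 chains was 1.47 within lane 8 and 0.84 within lane 1, where that of all genes was 0.04 and 0.47.

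The fibrillar chains made up 63.3%, 72.4% and 69.7% of collagen FPKM in TSCI cords, against 51.3%, 59.8% and 66.1% in sham cords. In 7 of the 10 tested fibrillar genes the groups did not overlap, TSCI being the higher, beside 13.4% of all genes, and the median log2 fold change of the 10 was 1.52, beside 0.44 for all genes. The 7 include Col2a1, whose sham mean lay below 0.5 FPKM. Col3a1, the single chain of type III collagen of pliable tissues and vessel walls, was the highest of the 44 genes in both groups. It had 129, 122 and 114 FPKM in TSCI cords, against 18.5, 27.8 and 35.7 FPKM in sham cords. These values left a wide gap between the groups, with little spread among the TSCI libraries. The log2 fold change was 2.18 ± 0.68 (SE), 1.74 above the median of all genes, and did not pass (limma, adjusted p = 0.177), with 2.77 within lane 8 and 1.71 within lane 1. With annotated isoforms alone it was 4.19, and the highest coding isoform is listed at 0 in sham replicate 2.

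Type I collagen joins alpha 1 and alpha 2 chains in each molecule, with alpha 1 in excess. Col1a2, the alpha 2 chain, had 88.7, 60.2 and 59.6 FPKM in TSCI cords, against 21.6, 24.0 and 36.3 FPKM in sham cords. Col1a1, the alpha 1 chain, had 111, 25.8 and 27.2 FPKM in TSCI cords, against 15.7, 7.78 and 14.6 FPKM in sham cords. Neither gene's groups overlapped, yet TSCI replicate 1 held a value of Col1a1 far above the other TSCI libraries. The log2 fold changes were 1.34 ± 0.66 (SE) for Col1a2 (limma, adjusted p = 0.455) and 1.77 ± 0.73 for Col1a1 (limma, adjusted p = 0.341), and after median-ratio scaling the groups of both genes overlapped. Col1a1 differed by 2.78 within lane 8 and 0.84 within lane 1, and by 1.09 without TSCI replicate 1. Col1a2 differed by 2.02 within lane 8 and 0.71 within lane 1. In FPKM, which is per length, Col1a1 exceeded Col1a2 in TSCI replicate 1 only, with a ratio of 1.25, 0.429 and 0.456 in TSCI cords and 0.730, 0.324 and 0.402 in sham cords.

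The ratio of Col3a1 to Col1a2, which scaling between libraries cannot change, was 1.46, 2.03 and 1.92 in TSCI cords, against 0.859, 1.16 and 0.985 in sham cords. By these summed RNA levels, every TSCI library thus held more Col3a1 per Col1a2 than any sham library. On the main coding isoforms alone the ratio overlapped between groups. TSCI replicate 3 had 44.1 FPKM for Col3a1 and 53.3 FPKM for Col1a2 there, and sham replicate 1 had 13.6 and 14.7 FPKM. With 3 libraries against 3 an exact permutation test, two-sided, cannot go below p = 0.1, which is the value it gave for the summed levels. Other chain ratios, among them Col1a1 to Col1a2 and Col4a1 to Col4a2, gave p = 0.2 to 0.8 by the same permutation test.

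Type V collagen sits inside type I fibrils and limits their width. Col5a2 had 21.7, 20.2 and 30.9 FPKM in TSCI cords, against 4.64, 4.38 and 5.69 FPKM in sham cords. The groups were tight and well apart, the log2 fold change was 2.18 ± 0.61 (SE; limma, adjusted p = 0.121), and the values within lanes were alike, 2.11 in lane 8 and 2.04 in lane 1. With annotated isoforms alone it was 1.33. Col5a1 had 15.3, 5.16 and 5.13 FPKM in TSCI cords, against 2.38, 1.52 and 2.74 FPKM in sham cords. Col5a3, a chain of a less common form of type V, had 12.98, 4.85 and 2.84 FPKM in TSCI cords, against 0.933, 1.89 and 1.31 FPKM in sham cords. Both were highest in TSCI replicate 1, with log2 fold changes of 1.58 ± 0.68 for Col5a1 and 1.76 ± 0.71 for Col5a3 (limma, adjusted p = 0.374 and 0.329). Within lane 8 they differed by 2.46 and 3.23, and within lane 1 by 0.80 and 1.23. Col3a1 and Col5a2 are neighbours on chromosome 1, 24614 bases apart and on opposite strands.

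Most of the remaining fibrillar chains are known from cartilage, and all of them had lower mean levels than Col5a2 in each group. Col2a1, the type II chain, had 3.02, 1.47 and 1.61 FPKM in TSCI cords, and in sham cords 1.03 and 0.440 FPKM with 1 library listed at 0. Its groups did not overlap (log2 fold change 1.45 ± 0.67, SE; limma, adjusted p = 0.422). Col11a1 and Col11a2, which encode type XI chains, overlapped between groups, with 5.46 to 7.88 FPKM in TSCI cords and 1.26 to 7.73 FPKM in sham cords for Col11a1, and 1.505 to 3.78 FPKM in TSCI cords and 0.901 to 8.02 FPKM in sham cords for Col11a2. In each the highest sham value was that of replicate 1. Within lane 8 Col11a1 differed by -0.09 and within lane 1 by 2.0. Col27a1 had a log2 fold change of 0.02 ± 0.67, which turned negative after scaling (-0.29 with median ratios), and Col24a1 was below the filter. A list of 8 bone and cartilage markers had 7 genes with a row, 4 of them tested and 0 past the threshold, and a summed level of 5.32 to 9.45 FPKM in TSCI cords and 6.74 to 8.34 FPKM in sham cords, led by Acan and Ibsp. The osteocalcin gene Bglap was listed at 0 in 1 TSCI library and 2 sham libraries and reached 0.516 FPKM at most.

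**Figure D2:**
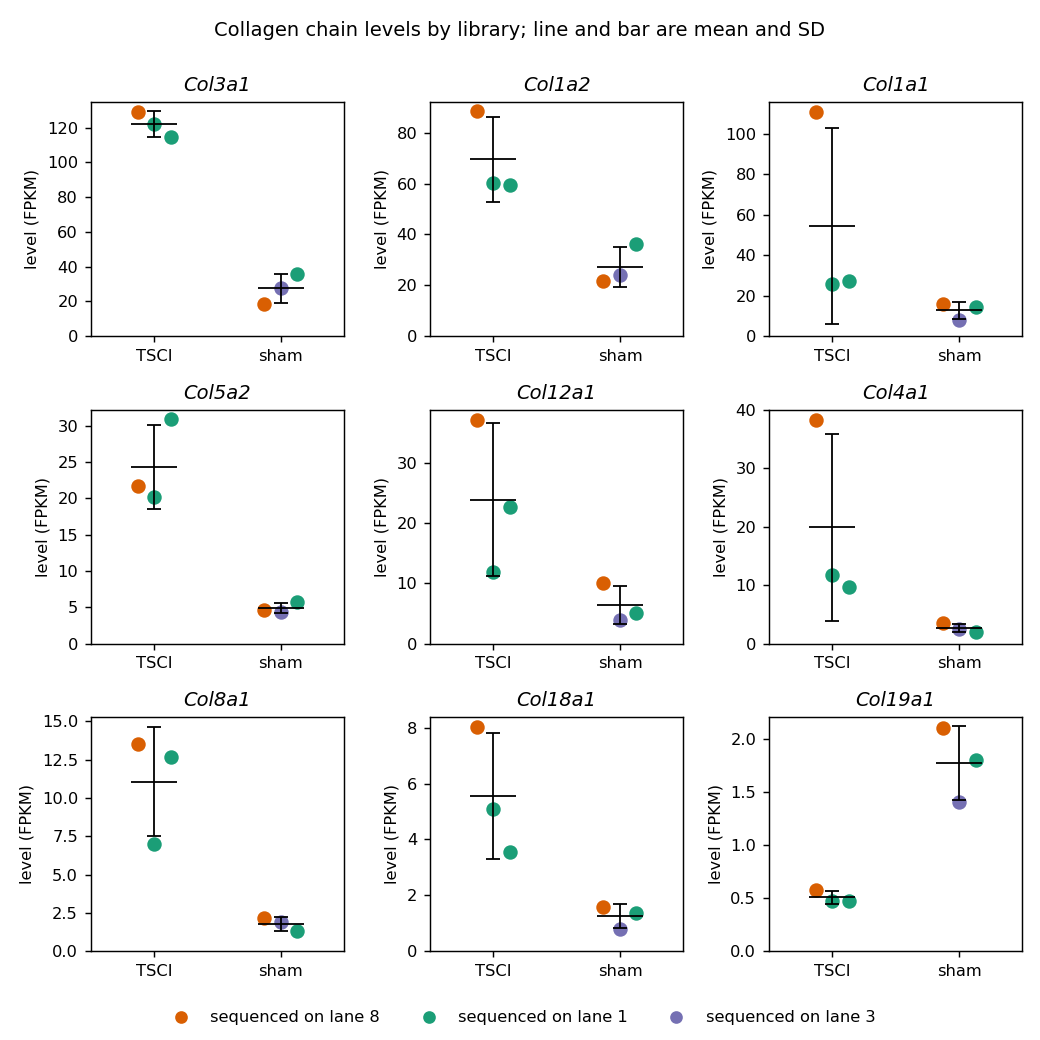
Level in FPKM of 9 collagen chain genes in each library (points, coloured by sequencing lane), TSCI left and sham right, with the mean (long line) and SD (bar) of 3 libraries per group. Col3a1 and Col5a2 are well apart in every library, the means of Col1a1 and Col4a1 are drawn up by TSCI replicate 1 on lane 8, and Col19a1 lies lower in TSCI cords.

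Type IV chains, the network of every basement membrane, came to 67.3, 20.8 and 19.1 FPKM in sum in TSCI cords, against 10.98, 5.51 and 6.89 FPKM in sham cords. Col4a1 and Col4a2, which join in the common type IV molecule of vessel walls, carried most of it. Col4a1 had 38.2, 11.8 and 9.67 FPKM in TSCI cords, against 3.49, 2.54 and 1.98 FPKM in sham cords. Col4a2 had 20.1, 4.85 and 5.09 FPKM in TSCI cords, against 4.28, 1.02 and 1.53 FPKM in sham cords. The groups of both genes did not overlap, and in both TSCI replicate 1 was the highest library. Col4a1 had a log2 fold change of 2.44 ± 0.69 (SE), 2.0 above the median of all genes (limma, adjusted p = 0.127), with 3.28 within lane 8 and 2.17 within lane 1. It was 1.84 without TSCI replicate 1 and 1.31 with annotated isoforms alone (limma, adjusted p = 0.706 for the latter). The main coding isoform of Col4a1 had 32.8, 0.0566 and 1.47 FPKM in TSCI cords, against 3.49, 2.54 and 1.98 FPKM in sham cords. On that isoform TSCI replicates 2 and 3 lay below every sham library. Col4a2 had 1.80 ± 0.75 (SE; limma, adjusted p = 0.352). Among the 44 genes Col4a1 ranked sixth by mean level in TSCI cords and fifteenth in sham cords.

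Col4a1 (minus strand) and Col4a2 (plus strand) start head to head on chromosome 8, where their annotated spans share the 22 bases at chr8:11312805-11312826. The ratio of Col4a1 to Col4a2 was 1.90, 2.42 and 1.90 in TSCI cords and 0.815, 2.499 and 1.30 in sham cords, so the groups overlapped. Col4a5, a chain of vessel and other basement membranes, had 2.74, 3.18 and 3.16 FPKM in TSCI cords, against 1.85, 0.932 and 2.05 FPKM in sham cords. Those groups did not overlap as deposited but did after median-ratio scaling, and the log2 fold change was 0.78 ± 0.64 (SE; limma, adjusted p = 0.676). Its neighbour Col4a6, 1308 bases away on the other strand of the X chromosome, was at 0.787 to 0.975 FPKM in TSCI cords and 0.637 to 0.889 FPKM in sham cords, and its small positive log2 fold change of 0.19 turned to -0.14 after median-ratio scaling. Col4a4 had 5.03 FPKM in TSCI replicate 1 and at most 0.136 FPKM in the other TSCI libraries, against 0.0585 to 0.296 FPKM in sham cords. Of that high value, 4.93 FPKM sat on an assembled isoform of 237 bases and 3 exons. Col4a3, its neighbour on chromosome 1, was below the filter.

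Collagens of the basement membrane zone tie the membrane to the tissue around it. Col18a1, whose chain carries the fragment endostatin, had 8.01, 5.08 and 3.56 FPKM in TSCI cords, against 1.59, 0.787 and 1.39 FPKM in sham cords. The groups did not overlap, and the log2 fold change was 1.75 ± 0.66 (SE; limma, adjusted p = 0.287), with 2.02 within lane 8 and 1.33 within lane 1. Its isoforms differed between libraries: the coding isoform ENSMUST00000081654 had 7.86, 4.87 and 0.0163 FPKM in TSCI cords and was listed at 0 in all 3 sham libraries, while ENSMUST00000072755 had 0.147, 0.207 and 1.95 FPKM in TSCI cords, against 1.38, 0.787 and 1.35 FPKM in sham cords. In TSCI replicate 3 and in the sham libraries, ENSMUST00000072755 was thus the higher of both isoforms. Col7a1, the chain of anchoring fibrils, had 2.24, 0.634 and 0.584 FPKM in TSCI cords, and in sham cords 0.112 and 0.0916 FPKM with 1 library listed at 0 (log2 fold change 1.41 ± 0.63, SE; limma, adjusted p = 0.397). In the first of these libraries 1.31 FPKM came from a retained-intron isoform of 245 bases. Col15a1, a relative of Col18a1, had 6.16, 4.15 and 2.81 FPKM in TSCI cords, against 2.99, 7.38 and 4.13 FPKM in sham cords, and these values overlapped (log2 fold change -0.10 ± 0.66, SE; limma, adjusted p = 0.968). Of the 7.38 FPKM in sham replicate 2, 5.33 FPKM sat on a noncoding isoform of 345 bases.

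The type VI chains form beaded filaments that link cells to the fibrils. Col6a1 had 24.8, 6.29 and 7.16 FPKM in TSCI cords, against 8.60, 3.42 and 5.75 FPKM in sham cords. Col6a2 had 17.6, 4.68 and 5.85 FPKM in TSCI cords, against 6.89, 3.10 and 5.18 FPKM in sham cords. The groups of both overlapped, and both genes kept a close ratio to each other, 1.22 to 1.41 in TSCI cords and 1.10 to 1.25 in sham cords. Col6a3, the long chain that joins both in the molecule, had 10.9, 8.31 and 8.74 FPKM in TSCI cords, against 2.85, 1.14 and 4.36 FPKM in sham cords, with no overlap. Its log2 fold change was 1.71 ± 0.66 (SE; limma, adjusted p = 0.308). Col6a1 had 0.85 ± 0.71 and Col6a2 had 0.66 ± 0.70 (limma, adjusted p = 0.677 and 0.752), and whether the 3 differ was not tested. With annotated isoforms alone Col6a3 had 1.05, beside 0.85 for Col6a1 and 0.66 for Col6a2. The main coding isoform of Col6a3 had 9.73, 2.56 and 4.66 FPKM in TSCI cords, against 2.41, 0 and 3.21 FPKM in sham cords, which overlapped. Col6a4, Col6a5 and Col6a6, which lie in a row on chromosome 9, were below the filter, the highest value being 0.935 FPKM of Col6a5 in TSCI replicate 1.

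Among the fibril-associated chains, which coat fibrils and have interrupted helices, Col12a1 was the highest. This chain of tissues under load had 37.1, 11.9 and 22.7 FPKM in TSCI cords, against 10.0, 3.97 and 5.16 FPKM in sham cords. The groups did not overlap, though the lowest TSCI value lay close to the highest sham value, and the log2 fold change was 1.78 ± 0.68 (SE; limma, adjusted p = 0.295). Col16a1, a minor chain linked to small heterotypic fibrils, had 14.5, 9.86 and 9.27 FPKM in TSCI cords, against 6.48, 6.63 and 2.40 FPKM in sham cords. Col14a1, a fibril-coating chain related to Col12a1, had 4.89, 3.06 and 3.07 FPKM in TSCI cords, against 1.15, 1.33 and 0.895 FPKM in sham cords. Neither overlapped, with log2 fold changes of 1.13 ± 0.65 for Col16a1 and 1.34 ± 0.64 for Col14a1 (limma, adjusted p = 0.542 and 0.437), and after median-ratio scaling the groups of Col16a1 overlapped. Col20a1 had 7.10, 1.96 and 1.76 FPKM in TSCI cords and overlapped with sham cords by 1 library at 1.94 FPKM, the others being at 0.393 FPKM and listed at 0. Short assembled isoforms of 3 and 6 exons held 30.9% and 30.0% of Col20a1.

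Type IX chains are known from cartilage. Col9a3 had 3.39, 4.11 and 4.96 FPKM in TSCI cords, against 3.24, 0.659 and 0.751 FPKM in sham cords, with the lowest TSCI value just above the highest sham value. The log2 fold change was 1.39 ± 0.70 (SE; limma, adjusted p = 0.466), with 0.06 within lane 8 and 2.0 within lane 1. Its highest isoform by mean was a retained-intron transcript. Col9a2 was at 0.377 to 1.55 FPKM in TSCI cords and 1.40 to 6.45 FPKM in sham cords, where all of the highest value, in sham replicate 2, sat on a noncoding isoform of 752 bases. Its log2 fold change was -1.29 ± 0.73 (SE; limma, adjusted p = 0.533), with 0.11 within lane 8 and -1.09 within lane 1. Col9a1, below the filter, had 0.162, 0.0685 and 0.117 FPKM in TSCI cords, against 0.377, 0.427 and 0.382 FPKM in sham cords, without overlap.

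Col19a1 is a fibril-associated chain known from neurons and muscle. Like Col9a2, and unlike the other 5 tested chains of its family, it had a negative log2 fold change. It had 0.583, 0.476 and 0.474 FPKM in TSCI cords, against 2.11, 1.41 and 1.80 FPKM in sham cords. Every TSCI value lay below every sham value, with close agreement in each group, and the log2 fold change was -1.16 ± 0.62 (SE; limma, adjusted p = 0.50). It was -1.27 within lane 8 and -1.24 within lane 1, and relative to the median of all genes it was -1.60. The main coding isoform of Col19a1 had 0.222, 0.400 and 0.290 FPKM in TSCI cords, against 0, 1.41 and 1.67 FPKM in sham cords, which overlapped. In sham replicate 1, 1.31 FPKM sat on a noncoding isoform.

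Col8a1 and Col8a2 encode the short chains of type VIII collagen, which forms lattices in vessel walls and under endothelia. Col8a1 had 13.5, 7.01 and 12.6 FPKM in TSCI cords, against 2.19, 1.88 and 1.30 FPKM in sham cords. The groups were far apart, and the log2 fold change was 2.30 ± 0.64 (SE), 1.86 above the median of all genes (limma, adjusted p = 0.119), with 2.38 within lane 8 and 2.46 within lane 1. All of its FPKM was on 1 coding isoform. Col8a2 had 1.38, 0.981 and 1.39 FPKM in TSCI cords, against 1.74, 1.85 and 2.35 FPKM in sham cords, which did not overlap in the opposite direction (log2 fold change -0.50 ± 0.63, SE; limma, adjusted p = 0.797). Col10a1, the other gene of the family and a marker of growth plate cartilage, was at 0.404 FPKM or less in every library.

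Transmembrane collagens are anchored in the cell surface, and Col25a1 is known from neurons. Their family made up 0.631%, 0.538% and 0.740% of collagen FPKM in TSCI cords, against 7.09%, 1.54% and 2.78% in sham cords. The shares did not overlap, while the family's own sums did, at 3.93, 1.84 and 2.68 FPKM in TSCI cords and 11.4, 1.85 and 4.18 FPKM in sham cords, and the sum over all chains was higher in TSCI cords. Col23a1 had 2.35, 0.938 and 1.62 FPKM in TSCI cords, against 5.89, 1.08 and 2.05 FPKM in sham cords, and Col25a1 had 1.47, 0.503 and 0.629 FPKM in TSCI cords, against 5.11, 0.693 and 1.64 FPKM in sham cords. Both pairs of groups overlapped as deposited and did not after median-ratio scaling, and neither gene passed (limma, adjusted p = 0.814 for Col23a1 and 0.674 for Col25a1). Col13a1, a muscle synapse collagen, was at 0.0426 to 0.299 FPKM in TSCI cords and 0.0803 to 0.498 FPKM in sham cords, and Col17a1, a collagen of skin, was listed at 0 in 2 sham libraries. Of the other chains, Col26a1 was at 0.559 to 1.73 FPKM in TSCI cords and 0.195 to 0.957 FPKM in sham cords. Col28a1, a chain known from peripheral nerve and below the filter, had 0.699, 0.400 and 0.529 FPKM in TSCI cords, against 0.0563, 0.297 and 0.148 FPKM in sham cords, without overlap. Col22a1, of tissue junctions, was at 0.136 to 0.287 FPKM in TSCI cords and 0 to 0.547 FPKM in sham cords.

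**Figure D3:**
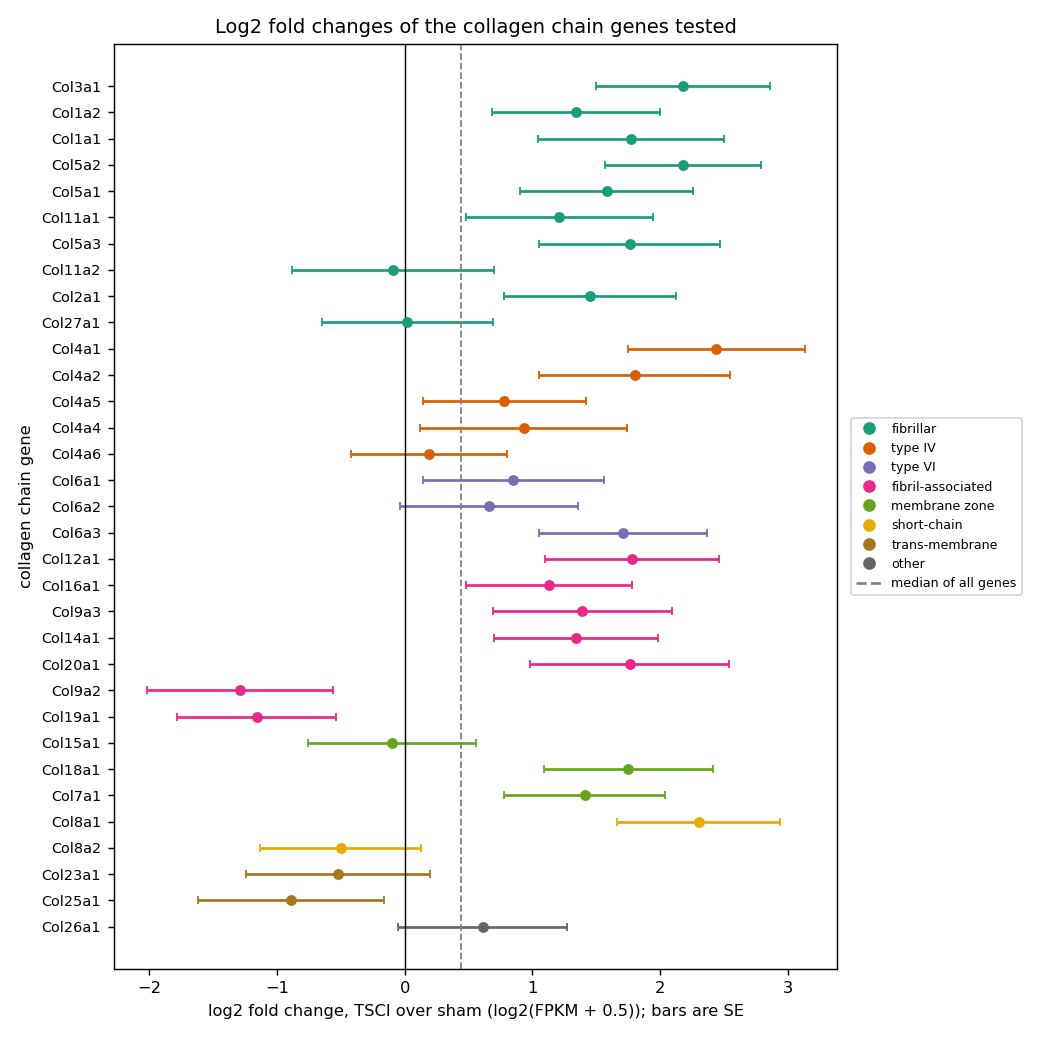
Log2 fold change, TSCI over sham, on the log2(FPKM + 0.5) scale with its SE for the 33 collagen chain genes tested, coloured by family, with 0 (solid) and the median of all genes, 0.44 (dashed). Col4a1, Col8a1, Col3a1 and Col5a2 lie furthest to the right, and Col9a2, Col19a1 and Col25a1 furthest to the left, and none passed the threshold.

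Some calls depended on how the libraries of lane 8 were treated. With lane 8 as a covariate, Col3a1, Col4a1, Col5a2 and Col8a1 passed (limma, adjusted p = 0.0294, 0.0236, 0.0279 and 0.0298), beside 3.60% of all genes higher in TSCI. Without both libraries of lane 8, 0 of 31 chains passed, beside 487 higher and 129 lower of 15769 genes. There the same 4 chains had adjusted p = 0.0941, 0.097, 0.0645 and 0.077 (limma). Without sham replicate 1, 6 chains passed, which were Col4a1, Col4a2, Col5a2, Col8a1, Col12a1 and Col20a1, beside 7.28% of all genes.

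**Figure D4:**
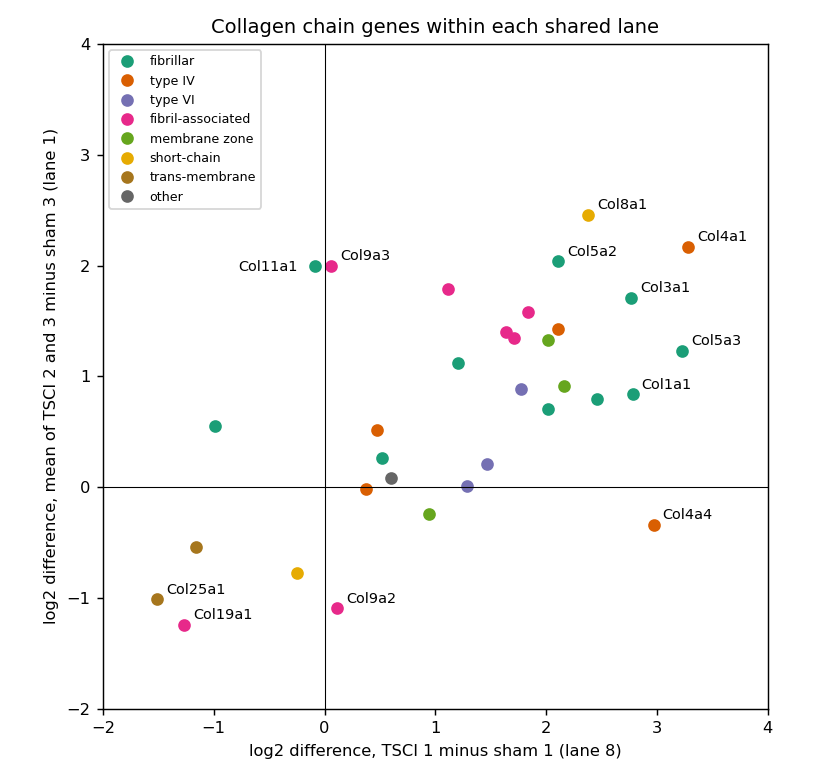
Log2 difference of the 33 tested collagen chain genes between TSCI and sham libraries within lane 8 (x axis, 1 library each) and within lane 1 (y axis, 2 TSCI libraries and 1 sham library), coloured by family. Col4a1, Col8a1, Col5a2 and Col3a1 are high on both axes, Col19a1 and Col25a1 low on both, and Col4a4 and Col11a1 are high on 1 axis only.

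At the isoform level, 27 of the 33 tested chains had a coding isoform as their highest by mean FPKM, 4 an assembled one and 2 an annotated noncoding one. Only 8 of the 33 had the same leading isoform in all 6 libraries, and 16 had another isoform at 20% or more of the gene. For Col5a2 the annotated coding isoform had 12.2, 18.4 and 2.25 FPKM in TSCI cords, against 3.43, 4.38 and 4.47 FPKM in sham cords, while an assembled isoform, also of 54 exons, had 26.1 FPKM in TSCI replicate 3 and at most 0.00413 FPKM in any other TSCI library, and was listed at 0 in sham cords. The coding isoform of Col1a1 (ENSMUST00000001547) held 92.4% of the gene, with 104, 21.7 and 24.7 FPKM in TSCI cords, against 13.9, 7.78 and 14.6 FPKM in sham cords. That of Col3a1 (ENSMUST00000087883) held 60.3% and was listed at 0 in sham replicate 2, where the gene as a whole had 27.8 FPKM.

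Partner genes that make, cut, bind or accompany collagen were described in 5 lists of 69 genes in all, 64 of them tested. Only Thbs1, which encodes thrombospondin 1, a matrix protein released by platelets and injured tissue, passed, beside the 0.878% of all genes. It had 70.1, 24.6 and 49.6 FPKM in TSCI cords, against 5.18, 1.87 and 4.11 FPKM in sham cords (log2 fold change 3.49 ± 0.68, SE; limma, adjusted p = 0.0282). The call was lost when any TSCI library, or sham replicate 2 or 3, was left out (limma, adjusted p = 0.0569 to 0.245), and with annotated isoforms alone, all isoforms, no filter or quantile normalization (limma, adjusted p = 0.0548 to 0.219). Over the 64 genes the median log2 fold change was 1.16, beside 0.44 for all genes. In 31 every TSCI value exceeded every sham value, beside 13.4% of all genes, while 2 had the opposite order, beside 3.13%.

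For folding and hydroxylation in the endoplasmic reticulum, 0 of 19 genes passed and the log2 fold change of all 19 was positive, from 0.05 to 2.62. P4hb, the shared subunit of prolyl 4-hydroxylase, had 97.0, 71.9 and 142 FPKM in TSCI cords, against 31.2, 9.70 and 16.3 FPKM in sham cords (log2 fold change 2.51 ± 0.71, SE; limma, adjusted p = 0.123). P4ha3, a catalytic subunit of the same enzyme, had 16.5, 6.19 and 13.5 FPKM in TSCI cords, against 5.35, 0.0467 and 1.64 FPKM in sham cords (limma, adjusted p = 0.194). The groups of both genes did not overlap. Outside the cell, Lox, which cross-links collagen, had 13.8, 14.4 and 24.0 FPKM in TSCI cords, against 1.94, 2.91 and 2.22 FPKM in sham cords, and Bmp1, which cleaves the C-propeptide of procollagen, had 33.7, 19.0 and 19.5 FPKM in TSCI cords, against 5.599, 0.933 and 3.34 FPKM in sham cords. Both lay far above sham cords in every library and missed the threshold (limma, adjusted p = 0.0692 for Lox and 0.0742 for Bmp1), as did all 12 tested genes of that list.

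Of 8 tested collagen receptors and uptake genes, 0 passed. Itgb1, the beta 1 chain of the collagen-binding integrins, had 75.9, 38.8 and 121 FPKM in TSCI cords, against 20.8, 12.8 and 8.28 FPKM in sham cords (log2 fold change 2.40 ± 0.70, SE; limma, adjusted p = 0.142), and Itga1, its partner in a type IV collagen receptor, had 5.21, 3.04 and 5.22 FPKM in TSCI cords, against 2.37, 0.716 and 0.426 FPKM in sham cords. Of 15 tested basement membrane partners 0 passed, and their median log2 fold change of 0.58 was 0.14 above that of all genes. Hspg2, which encodes perlecan, had 16.8, 7.15 and 7.33 FPKM in TSCI cords, against 4.45, 0.865 and 2.08 FPKM in sham cords, and Nid2, which encodes nidogen 2, had 7.79, 2.38 and 2.83 FPKM in TSCI cords, against 1.23, 0.579 and 0.569 FPKM in sham cords. Neither pair of groups overlapped. Among the 10 fibril partners, Postn, the matricellular protein periostin, had 12.97, 3.86 and 7.74 FPKM in TSCI cords, against 0.921, 0.656 and 1.13 FPKM in sham cords (limma, adjusted p = 0.108). Fmod, the fibril-binding proteoglycan fibromodulin, had 5.87, 2.37 and 0.168 FPKM in TSCI cords, against 13.95, 12.4 and 10.9 FPKM in sham cords, the opposite order (log2 fold change -2.48 ± 0.80, SE; limma, adjusted p = 0.194).

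Lists of cell type markers were read from the same libraries. Of the spinal cord markers, Mbp, which encodes myelin basic protein, was at 329.5 to 2866 FPKM in TSCI cords and 378 to 4063 FPKM in sham cords, and Snap25, a protein of nerve endings, was at 68.7 to 313 FPKM in TSCI cords and 124 to 332 FPKM in sham cords, and neither passed. The 8 fibroblast and meninges markers summed to 240.2 to 385 FPKM in TSCI cords and 110 to 158 FPKM in sham cords, 0 of 8 passed, and none was listed at 0. The log2 fold change was positive for 4 of the 8 and negative for 4. Without Dcn, the highest of them, the sums were 107, 57.9 and 111 FPKM in TSCI cords, against 68.3, 54.4 and 72.5 FPKM in sham cords, which overlapped. Dcn had 133, 212 and 275 FPKM in TSCI cords, against 64.7, 55.3 and 85.6 FPKM in sham cords, and Igf2 had 31.1, 7.14 and 13.5 FPKM in TSCI cords, against 23.2, 22.7 and 28.8 FPKM in sham cords. The 5 smooth muscle markers summed to 87.1 to 303 FPKM in TSCI cords and 7.42 to 16.96 FPKM in sham cords. Tagln made up most of every TSCI sum. It passed (68.4, 292 and 207 FPKM in TSCI cords, against 2.81, 9.96 and 11.2 FPKM in sham cords; limma, adjusted p = 0.0194). Acta2 had 15.7, 8.52 and 13.2 FPKM in TSCI cords, against 3.27, 1.92 and 1.86 FPKM in sham cords. In 3 of the 4 tested the groups did not overlap, TSCI being the higher, beside 13.4% of all genes. Des overlapped, with means of 1.89 FPKM in TSCI cords and 2.30 FPKM in sham cords. Myh11 was below the filter and overlapped. The 8 endothelial markers summed to 30.6 to 76.8 FPKM in TSCI cords and 10.3 to 29.5 FPKM in sham cords with 0 of 8 past the threshold, led by Cldn5, which was listed at 0 in replicate 1 of each group, and Cdh5. The 7 pericyte markers summed to 40.8 to 90.6 FPKM in TSCI cords and 49.4 to 61.7 FPKM in sham cords with 0 of 7 past it, led by Vtn and Rgs5. The part of these cells in the collagen values was not tested.

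Markers of macrophages and microglia summed to 224 to 585 FPKM in TSCI cords and 32.5 to 107 FPKM in sham cords, with 3 of 6 past the threshold, led by Tyrobp and Cd68. Markers of cell division summed to 60.4 to 88.4 FPKM in TSCI cords and 3.22 to 5.34 FPKM in sham cords, with 4 of 5 past it, led by Top2a and Cdk1. Skeletal muscle markers summed to 1.66, 11.4 and 2.44 FPKM in TSCI cords, against 1.68, 96.0 and 28.3 FPKM in sham cords, led by Tnnt3 and Mb, with 0 of 7 past it, so sham replicates 2 and 3 held most of the muscle RNA. Its part in the collagen levels of those libraries was not tested.

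CircRNAs are closed loops of RNA made by back-splicing, in which the end of an exon is joined to the start of the same or an earlier exon, and a further class is made of intron sequence. The 13 circRNAs of collagen genes were 8 exonic ones of 5 genes and 5 intronic ones of 4 genes. All 8 exonic circles had both ends at annotated exon boundaries of GRCm38. The junctions are shown because they are what sets a circle apart from the linear mRNA: the last 20 bases of the last exon are in lower case, and the first 20 bases of the first exon, to which they are joined, are in capitals.
Col12a1, exon 42 to exon 35, chr9:79639672-79650044, minus strand: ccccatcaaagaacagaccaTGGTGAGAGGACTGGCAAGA
Col4a2, exon 29 to exon 28, chr8:11427553-11429528, plus strand: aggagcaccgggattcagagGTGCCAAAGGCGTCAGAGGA
Col11a1, exon 4 to exon 2, chr3:114055595-114066574, plus strand: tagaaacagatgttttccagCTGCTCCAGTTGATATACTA
Col25a1, exon 12 to exon 8, chr3:130475593-130496442, plus strand: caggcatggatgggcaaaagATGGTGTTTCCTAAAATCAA
All 4 junctions join coding exons, and the Col4a2 circle is made of exons 28 and 29, 330 bases in all.

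The 4 circles of Col19a1 share their first exon, exon 2, and differ in the last, so only the ends of the last exons are shown, in lower case.
Col19a1, end of exon 14, chr1:24451762-24575459, minus strand: cagggccaccagccttaact
Col19a1, end of exon 9, chr1:24525604-24575459, minus strand: agggcgacaaaggagagccg
Col19a1, end of exon 6, chr1:24534033-24575459, minus strand: cagatggcaaacctgtggat
Col19a1, end of exon 4, chr1:24559654-24575459, minus strand: cttcttatcagagacactgt
The longest of them held 13 exons and 1197 bases and the shortest 3 exons and 293 bases.

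CircRNA levels are given as CPM, counts scaled to the library's circRNA total with TMM factors. None of the 13 passed with edgeR (quasi-likelihood test, adjusted p under 0.05), and 0 of all 17363 tested did. At an unadjusted p under 0.05, 3 of the 13 were higher and 4 lower, beside 4.64% and 7.01% of all circRNAs. With DESeq2, 3 of the 13 passed, which were circles of Col12a1 and Col3a1 (higher) and Col19a1 (lower), beside 1.15% and 0.299% of all circRNAs, 199 and 52 of them. In CPM, 4 of the 13 lay wholly above the sham values and 4 wholly below, beside 10.2% and 7.68% of all circRNAs.

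The Col12a1 circle of exons 35 to 42 was the most abundant of the 13. It had 222, 234 and 196 CPM in TSCI cords, against 39.7, 73.2 and 92.4 CPM in sham cords (log2 fold change 1.67; edgeR, adjusted p = 0.422; DESeq2, adjusted p = 0.0131). The TSCI values of the circle were closer to each other than those of its gene, which ran from 11.9 to 37.1 FPKM in the same libraries. The CPM carry TMM factors between libraries and the FPKM carry no such scaling, so these spreads are not like for like. The Col11a1 circle had 36.2, 30.7 and 50.6 CPM in TSCI cords, against 25.8, 18.2 and 5.65 CPM in sham cords. The Col4a2 circle had 31.4, 35.4 and 15.3 CPM in TSCI cords, against 4.28, 20.1 and 6.14 CPM in sham cords, so its groups overlapped.

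Circles of Col19a1 lay lower in TSCI cords, as the gene did. The circle of exons 2 to 14 had 9.57, 10.4 and 13.1 CPM in TSCI cords, against 33.1, 39.7 and 38.1 CPM in sham cords (log2 fold change -1.74; edgeR, adjusted p = 0.421; DESeq2, adjusted p = 0.00324). That of exons 2 to 9 had 2.04, 6.25 and 3.81 CPM in TSCI cords, against 7.13, 12.3 and 27.3 CPM in sham cords, and that of exons 2 to 6 had 1.83, 4.17 and 2.42 CPM in TSCI cords, against 4.76, 8.44 and 19.4 CPM in sham cords. These did not overlap, whereas the smallest circle, of exons 2 to 4, did, at 0 to 1.30 CPM in TSCI cords and 1.19 to 5.90 CPM in sham cords. Since the 4 circles share exon 2 and a host gene, they are not independent of each other. Col25a1 showed the same order, with 10.6, 5.47 and 7.88 CPM in TSCI cords, against 19.9, 15.5 and 37.4 CPM in sham cords (log2 fold change -1.60; edgeR, adjusted p = 0.422; DESeq2, adjusted p = 0.143).

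**Figure D5:**
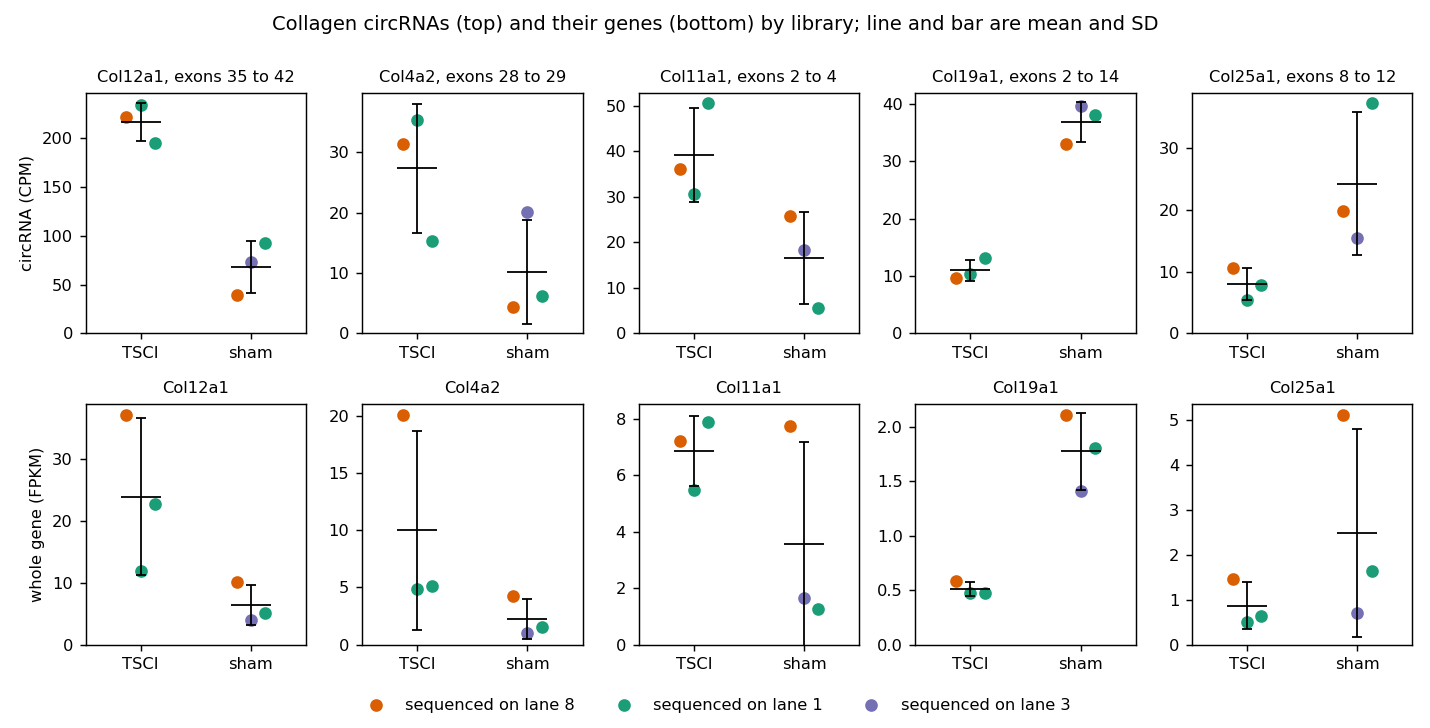
Top row, level of 5 exonic collagen circRNAs in CPM, and bottom row, level of their genes in FPKM, in each library (points, coloured by lane), TSCI left and sham right, with the mean (long line) and SD (bar) of 3 libraries per group. The Col12a1 circle lies higher in every TSCI library and the Col19a1 circle of exons 2 to 14 lower, on the same side as their genes.

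The intronic circRNAs were scarce. That of Col1a1 began right after exon 9, the exon shown above, and spanned 365 bases at chr11:94940172-94940536, with 32, 35 and 55 counts in TSCI cords, against 0, 0 and 5 counts in sham cords (edgeR, adjusted p = 0.422; DESeq2, adjusted p = 0.0681). That of Col3a1, 388 bases at chr1:45321993-45322380, had 9, 19 and 30 counts in TSCI cords and 0 in all 3 sham libraries. Against a limit of 3 counts over the sham group, its CPM was at least 19.6-fold higher in TSCI cords (edgeR, adjusted p = 0.422; DESeq2, adjusted p = 0.0166). The other 3, a pair in Col16a1 and 1 in Col5a1, reached 30 counts at most and overlapped between groups. The sign of the log2 fold change was that of the host gene for all 13 circRNAs, which come from the same libraries as the genes.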

How the data were processed

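RNA from the spinal cord, 3 TSCI and 3 sham libraries, was measured by sequencing. Extraction used Trizol, followed by depletion of ribosomal RNA and stranded library preparation, per the labels' protocols. Versions are absent from the submitters' processing notes, which list HISAT2, StringTie and TopHat. Neither the genome build nor the circRNA caller is given in the sources used here. Coordinates are called GRCm38 because 94.6% of 78098 transcript IDs matched their GENCODE M21 position. The isoform FPKM and coverage (signal) were used as deposited by the authors. Of the circRNA counts deposited by the authors 33.8% were whole (within 1e-06), so they were handled as estimated counts and rounded. CircRNA FPKM were not used.

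Isoforms of class codes =, j, c, o and e were summed to gene FPKM. Genes with a mean of at least 0.5 FPKM were tested on log2(FPKM + 0.5), over all 6 libraries, with limma 3.58.1 (trend option) and Benjamini-Hochberg adjustment across 16740 genes at 0.05. The pseudocount understates changes of low genes, and a value listed at 0 can be a failed estimate. For circRNAs with 10 or more counts in all and present in 3 or more libraries, edgeR 4.0.16 (TMM, quasi-likelihood) was used, with DESeq2 1.42.0 as an alternative, in R 4.3.3. Both scripts were tested on simulated data, where most log2 changes of 2 were missed. CircRNA counts totalled 4117695 to 6877068 in TSCI libraries and 4218762 to 7177607 in sham libraries, and limits from counts cover counting error only.

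The members and lists were chosen with earlier results of these data known. Values by library are given for chains whose groups do not overlap and the 3 highest of each family, with others mostly by range. Partner genes are given by library where they passed or had the 2 lowest p of their list. Fmod was added outside this rule. Marker lists are given as sums with their 2 highest genes. Sums of the spinal cord and Schwann cell lists are not reported here. Sequences come from GENCODE M21. Alternatives covered isoform classes, pseudocounts, filters, scalings, lane 8, replicate numbers and each library left out.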

Additional observations from a re-analysis of the deposited data

How the results depend on the processing

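Counts of genes past the threshold moved most. Against 147 higher and 2 lower, the counts were 24 and 0 with all isoforms of a gene name, 43 and 0 with annotated isoforms alone, 0 and 0 with no filter (2030 and 305 at an unadjusted p under 0.05), 73 and 1 with median-ratio scaling, 60 and 1 with quantile normalization, 602 and 42 with lane 8 as a covariate, and 487 and 129 outside lane 8. With a pseudocount of 0.1, 1 gene was lower. Leaving out 1 library gave 14 to 1196 higher and 0 to 252 lower, the most without sham replicate 1. Replicate numbers are shared by the groups, but deviations of same-numbered libraries correlated by 0.49, 0.28 and 0.08, so they were not taken as pairs, and TSCI replicate 2 correlated best with sham replicate 3. With the replicate block the counts were 846 and 117, with 4 collagen chains (Col3a1, Col4a1, Col5a2, Col8a1) and 13 partner genes higher and 1 partner gene lower. Collagen chains past the threshold were 0 as reported, 4 with lane 8 as a covariate, 0 outside lane 8, and 0 to 6 with 1 library left out. Higher partner genes came to 0 with all isoforms, annotated isoforms alone, no filter or quantile normalization, to 10 with lane 8 as a covariate, to 6 outside lane 8 (1 lower), and to 0 to 15 with 1 library left out. The chains' median log2 fold change of 1.34 was 0.80 with no filter, 0.87 with median-ratio scaling, 0.83 with quantile normalization, and 0.84 within lane 1, and above that of all genes it was 0.80 and 0.86 after these scalings, 0.49 outside lane 8, and 0.56 to 1.07 with 1 library left out. Chains lying wholly below sham values were 4 outside lane 8 and 4 after median-ratio scaling, both counts added after seeing the data. Signs turned for Col11a2 (0.36 with annotated isoforms, 0.36 outside lane 8, -0.59 to 0.71 with a library left out), Col15a1 (-0.37 to 0.22 with a library left out), Col23a1 (-0.97 to 0.04 with a library left out), Col27a1 (-0.29 and -0.50 after the scalings, -0.22 outside lane 8, -0.40 to 0.34 with a library left out), Col4a6 (-0.14 and -0.37 after the scalings) and the Col16a1 intronic circRNA after exon 9 (-0.58 to 7.22 with a library left out, the highest where every remaining sham library was at 0). The cause was not tested. DESeq2 passed 199 higher and 52 lower circRNAs, against 0 with edgeR. Fragment counts are not given for genes, so no counting interval could be set on FPKM.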
